A study of Mus musculus with 8 samples.

Results

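TEC is a provisional class of the GENCODE gene catalogue. It holds mostly unspliced loci that were drawn from clusters of cDNA clones with poly(A) features and whose standing as genes still has to be settled by experiment. The count table of the mouse cerebellum listed 56691 genes, of which 3219 were of this class and 2609 had at least 1 count. The 1932 TEC genes with 40 or more counts summed over all 8 libraries are described here, grouped by where they lay relative to protein-coding genes. Of these, 1334 lay whole within a protein-coding gene on its own strand and 148 within a gene on the opposite strand only. A further 21 lay within genes of both strands, 114 overlapped a gene only in part, and 315 were intergenic. The containing gene is called the host, and where several contained a member the shortest was taken. All but 8 of the members had a single exon, and their median length was 2238 bases.

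Bulk RNA sequencing was performed on frozen cerebella of 4 Atm-WT mice (ATM +/+, titled Control) and 4 Atm-KO mice (ATM -/-), with a separate library for each mouse. The mice were 6 months old and came from the B6;129S4-Atm tm1Bal/J line, on a mixed background, in which Atm, the kinase gene mutated in ataxia-telangiectasia, is disrupted in the germline and so in every cell type. Mice 2M, 7M, 13M and 32M were Atm-WT, and mice 1M, 7F, 11M and 12M were Atm-KO. The Atm-WT mice were littermates of Atm-KO mice from heterozygous parents. The label of 1 Atm-KO mouse ends in F and the others end in M, and neither a batch nor a preparation date is given. Total counts ranged from 65967130 to 88030300 per library. In CPM (counts of a gene scaled to a fixed library total), Atm ranged from 59.0 to 80.0 in Atm-WT and from 41.1 to 51.1 in Atm-KO libraries without overlap (log2 fold change -0.66, SE 0.103, adjusted p = 0.0775 by edgeR), and no member lay within Atm. Markers of granule cells, Purkinje cells, astrocytes and oligodendrocytes were present in all libraries, in keeping with the labelled tissue. Whether reads were counted by strand is not given in the sources used here, so that reads over 2 overlapping genes on opposite strands cannot be told apart.

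Introns are transcribed with the rest of a gene and mostly removed while transcription is still under way, and the excised intron is normally degraded within the nucleus. Reads inside an intron can come from unspliced host transcripts, excised introns, separate transcripts of either strand or traces of genomic DNA. Where such RNA holds a stretch of A, an oligo(dT) primer can start on it, which is a known source of cDNA clones that end inside introns. A transcript with an end of its own usually carries the hexamer AATAAA or ATTAAA shortly before the cleavage site.

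The annotated 3' ends separated the classes by their sequence. The windows below were read from the GRCm39 genome on the strand of each member, 5' to 3', and hold the last 50 bases of the gene followed by the 20 genomic bases beyond its end. They are shown for members whose values are described below. Capitals mark the A bases beyond the end where that stretch is A-rich (12 or more A of 20, or a run of 6), and the hexamer AATAAA or ATTAAA where it lies in the last 50 bases.
Gm37562 (same strand, within Ephb1, chr9:101929409-101929478, minus strand): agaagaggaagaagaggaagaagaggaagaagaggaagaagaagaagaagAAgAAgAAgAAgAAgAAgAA
Gm37675 (same strand, within Maml3, chr3:51780391-51780460, minus strand): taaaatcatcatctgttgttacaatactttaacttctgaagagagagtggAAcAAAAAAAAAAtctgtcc
2900002M20Rik (same strand, within Adgrb3, chr1:25863451-25863520, minus strand): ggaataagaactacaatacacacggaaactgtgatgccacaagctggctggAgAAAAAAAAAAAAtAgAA
Gm37482 (same strand, within Lrriq3, chr3:154803243-154803312, plus strand): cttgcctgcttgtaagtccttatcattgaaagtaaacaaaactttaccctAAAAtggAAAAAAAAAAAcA
Gm38344 (same strand, within Ppp2r3a, chr9:101063735-101063804, minus strand): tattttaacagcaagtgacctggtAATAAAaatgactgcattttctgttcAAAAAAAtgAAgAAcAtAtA
Gm47122 (same strand, within Snrk, chr9:121948512-121948581, plus strand): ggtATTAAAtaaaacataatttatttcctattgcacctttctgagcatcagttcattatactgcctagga
Gm43389 (same strand, within Klhl7, chr5:24360837-24360906, plus strand): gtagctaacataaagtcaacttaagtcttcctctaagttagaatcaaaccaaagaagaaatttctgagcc
4930466K18Rik (opposite strand, within Mcm9, chr10:53491321-53491390, plus strand): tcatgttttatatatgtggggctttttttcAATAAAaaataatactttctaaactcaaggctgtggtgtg
Gm42898 (opposite strand, within Lhfpl6, chr3:52979566-52979635, minus strand): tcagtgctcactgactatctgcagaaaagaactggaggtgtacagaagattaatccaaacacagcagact
Gm45290 (opposite strand, within Fto, chr8:92255443-92255512, minus strand): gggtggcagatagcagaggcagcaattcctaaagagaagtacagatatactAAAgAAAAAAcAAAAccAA
Gm44509 (intergenic, chr7:55623247-55623316, minus strand): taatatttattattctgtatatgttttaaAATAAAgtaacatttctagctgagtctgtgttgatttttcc

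The window of Gm37562 ended within a repeat of AAG that already ran through the last bases of the gene. Those of Gm37675, 2900002M20Rik and Gm37482 ended against a genomic stretch of A. None of these 4 windows held the hexamer. Gm38344 had both features, and Gm43389 and Gm42898 had neither. Over all 1334 same-strand members, 897 (67.2%) had an A-rich stretch beyond the annotated end. This share was 23.0% of the 148 opposite-strand members and 30.2% of the 315 intergenic members. It was 7.80% of 4079 lncRNA genes with as many counts, 30.1% of the 355 lncRNA genes that lay within a protein-coding gene on its strand, and 6.24% of 15887 protein-coding genes. As a control of base composition, the 20 bases before the annotated start were A-rich in 1.72% of the same-strand members. The hexamer went the other way. It lay in the last 50 bases of 19.3% of the same-strand, 43.2% of the opposite-strand and 47.9% of the intergenic members, against 55.7% of lncRNA and 73.1% of protein-coding genes. Its reverse complement lay in the same window in 7.80% of the same-strand members, and the hexamer itself in the 50 bases before the start in 6.22%. Of the same-strand members 309 had neither feature. Members in partial overlap were A-rich beyond the end in 17.5% and held the hexamer in 58.8%, and those within genes of both strands in 42.9% and 33.3%. GC content was lower in same-strand members (median 40.7%) than in opposite-strand (45.6%) and intergenic members (42.6%). These sequence features use no counts other than those that chose the members, and they are given without a test.

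**Figure D1:**
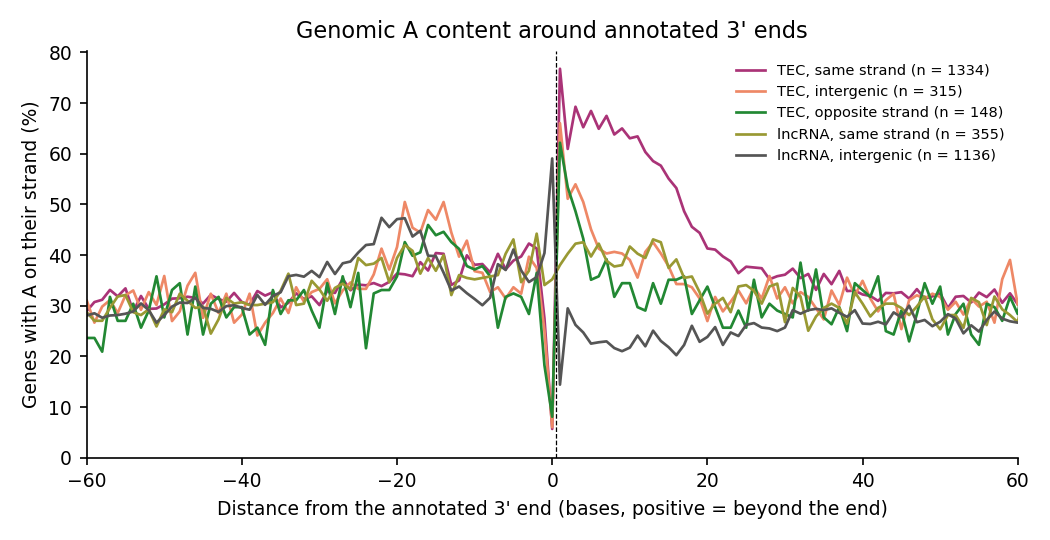
Percentage of genes with A on their own strand (vertical axis) at each base around the annotated 3' end (horizontal axis, distance in bases, positive beyond the end), for TEC members and lncRNA genes by class. In same-strand members the share stood between 60.9% and 76.8% over the first 10 bases beyond the end and was back at 32.2% at base 40, while in lncRNA genes within a host on its strand it stayed between 37.7% and 42.5% over those 10 bases.

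The annotated ends lay at the border of these stretches. The last annotated base was an A in 5.70% of the same-strand members and the first base beyond it in 76.8%. The same step was present in intergenic members (6.03% to 66.0%) and opposite-strand members (8.11% to 62.2%), so that in most members of each class the annotation stopped just before an A. Among lncRNA genes that lay apart from protein-coding genes the step ran the other way, from 59.1% to 14.4%. In the plot of A content the classes also differed in how far the stretch reached. At base 20 beyond the end 41.3% of the same-strand members still had an A, against 27.0% of the intergenic and 33.8% of the opposite-strand members.

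Same-strand members held a larger share of the counts in Atm-KO cerebella. Together they held 0.176, 0.224, 0.222 and 0.114% of all counts in Atm-WT mice 2M, 7M, 13M and 32M, and 0.373, 0.241, 0.282 and 0.390% in Atm-KO mice 1M, 7F, 11M and 12M. The genotypes did not overlap, but mouse 7F lay close to the highest Atm-WT mice, and mouse 32M stood below all others. The means were 0.184% ± 0.0516 and 0.321% ± 0.0715 (SD, n = 4 mice each), a ratio of 1.75, while the highest Atm-WT library was 1.96 times the lowest. Intergenic members held 0.0588% ± 0.00724 in Atm-WT and 0.0774% ± 0.00956 in Atm-KO (ratio 1.32), and opposite-strand members 0.0191% ± 0.000761 and 0.0220% ± 0.00162 (ratio 1.15), again without overlap in either class. In bulk tissue, a change in the RNA of a cell type and a change in the number of its cells cannot be told apart.

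**Figure D2:**
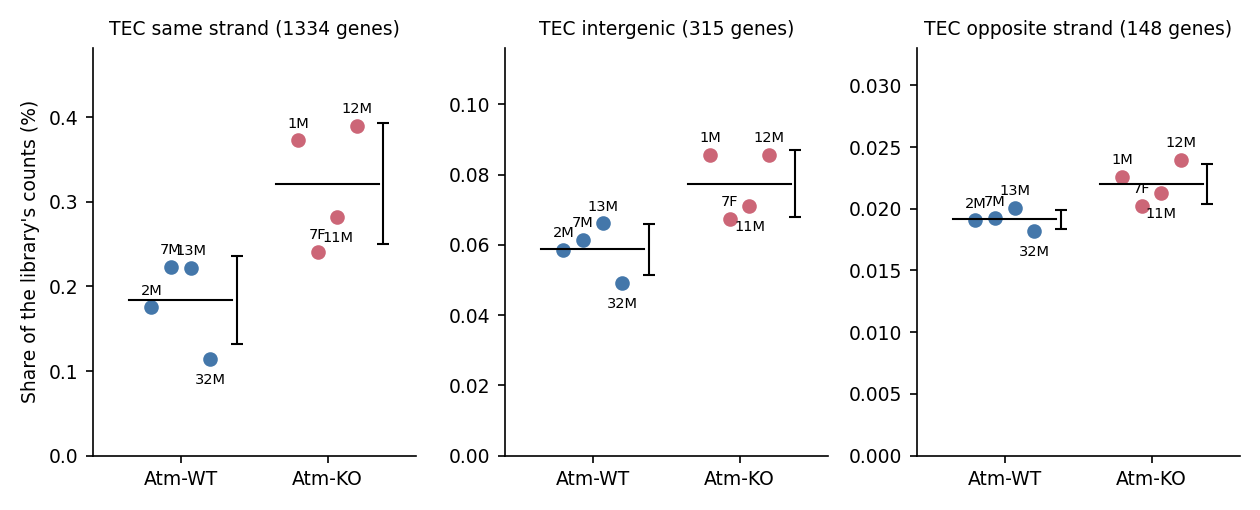
Share of each library's counts (vertical axes in percent, each starting at 0) held by same-strand, intergenic and opposite-strand TEC members in the Atm-WT and Atm-KO libraries. Points are mice with their label, black lines the group means and bars 1 SD (n = 4). The Atm-KO mice lay above the Atm-WT mice in each panel, from 0.241 to 0.390% against 0.114 to 0.224% for same-strand members.

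Counted gene by gene over all members, 1280 of the 1334 same-strand members (96.0%) had a higher mean CPM in Atm-KO, where 48.4% of all genes with 40 or more counts did. The median log2 ratio of the means was 0.76. Of the intergenic members 255 of 315 were higher (median 0.47), of the opposite-strand members 106 of 148 (median 0.27), of those within genes of both strands 19 of 21 (median 0.51), and of those in partial overlap 58 of 114 (median 0.01). In 295 of the same-strand members all Atm-KO values lay above all Atm-WT values and in 0 all lay below, against 6.25% and 4.72% of all genes with 40 or more counts. The same held for 31 and 1 of the intergenic members, 8 and 1 of the opposite-strand members, 5 and 1 of those within genes of both strands, and 4 and 1 of those in partial overlap.

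No member passed an adjusted p of 0.05 in edgeR's quasi-likelihood test, in which 0.0178% of the 22423 genes tested did. Of the 1932 members 1723 had enough counts to be tested. Of the 1237 tested same-strand members 134 reached the filter's level in all Atm-KO but not all Atm-WT libraries and 13 the reverse. These counts were 15 and 6 of the 112 tested opposite-strand members and 25 and 12 of the 261 tested intergenic members. A member that passed through the group where it is high had to differ, so the counts of calls below are a description. At an adjusted p under 0.1, 63 members were higher and 0 lower, of which 55 were on the same strand as their host (1.25% of all genes tested were higher and 0.647% lower). At an unadjusted p under 0.05, 684 of 1237 tested same-strand members were higher and 2 lower, against 11.7% and 8.48% of all genes tested. For intergenic members the higher and lower counts were 63 and 2 of 261, for opposite-strand members 12 and 2 of 112, for those within genes of both strands 8 and 1 of 18, and for those in partial overlap 10 and 1 of 95. When at least 10 counts were required in every library, 675 of 1025 same-strand, 11 of 80 opposite-strand and 70 of 201 intergenic members were higher at an unadjusted p under 0.05, beside 13.8% of all genes in that fit. The 12 on the opposite strand became 23 of 121 without Atm-WT 13M, 20 of 119 without Atm-KO 7F and 6 of 117 without either Atm-KO 1M or Atm-KO 12M. The 63 intergenic became 39 of 270 without Atm-KO 1M and 41 of 268 without Atm-KO 12M. DESeq2, the tool of the study, gave an adjusted p under 0.05 for 316 same-strand members higher and 0 lower of 1149 with an adjusted p, beside 5.05% and 2.44% of all genes. It called 24 intergenic and 2 opposite-strand members higher, and 352 higher and 2 lower over all members. With no filter on low counts, edgeR called 126 members at an adjusted p under 0.05, beside 1.62% of all genes. Without Atm-WT mouse 32M and Atm-KO mouse 12M, the libraries with the lowest and the highest share, 358 of 1252 tested same-strand members were higher at an unadjusted p under 0.05. The median log2 fold change over the 1252 was 0.48 in place of 0.76. The share of all genes called in that fit is not given.

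**Figure D3:**
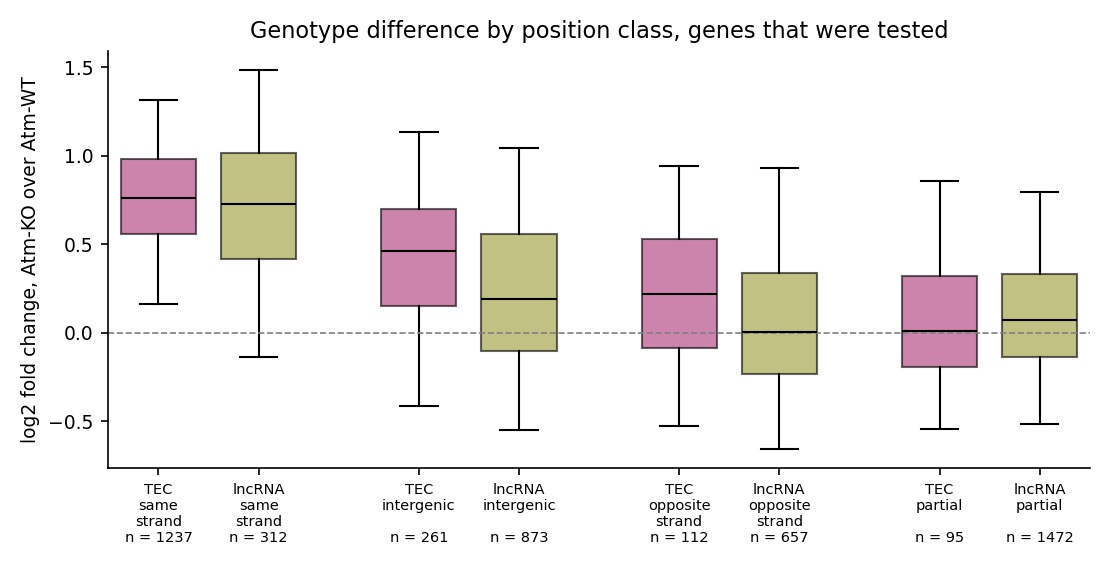
Log2 fold change of Atm-KO over Atm-WT (vertical axis) for tested TEC members and tested lncRNA genes of the same position class. Boxes give the median and quartiles and whiskers the 5th and 95th percentiles over genes. The medians were 0.76 and 0.73 on the host's strand, 0.46 and 0.19 for intergenic genes, 0.22 and 0.00 on the opposite strand and 0.01 and 0.07 in partial overlap, for TEC and lncRNA genes in turn.

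Among lncRNA genes, of which 641 of 4079 had a single exon, the host's strand was also the class with the highest median. Of the 355 lncRNA genes within a host on its strand 317 were higher in Atm-KO (median log2 ratio 0.73), and of the 852 on the opposite strand 434 were (median 0.02). Protein-coding genes had a median of -0.06. In the opposite-strand TEC members the value differed with whether they overlapped an exon of the host, where reads of both genes cover the same bases. The 94 that did had a median log2 ratio of 0.13 and a median level of 0.293 CPM per kb. The 54 that lay in introns alone had a median ratio of 0.49 and a level of 0.0873 CPM per kb. Same-strand members stood at 0.541 CPM per kb. Those 1284 that were clear of the exons of protein-coding genes on that strand had the same median log2 ratio (0.76) as all 1334, and the 50 that touched an exon 0.79.

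The 1334 same-strand members lay in 777 hosts, and 550 of these held a single member. Over hosts, the median of the members was higher in Atm-KO in 750 of 777. Relative to the hosts, counts on the members were 1.79, 2.19, 2.21 and 1.19% of the hosts' own counts in Atm-WT mice 2M, 7M, 13M and 32M, and 3.76, 2.38, 2.78 and 3.84% in Atm-KO mice 1M, 7F, 11M and 12M. The genotypes did not overlap. Of 775 hosts with counts 293 had a higher mean CPM in Atm-KO, with a median log2 ratio of -0.04. For opposite-strand members the values were 0.812% ± 0.0257 and 0.931% ± 0.0696 of the hosts' counts (SD, n = 4). Per kb of exon, the typical same-strand member stood at 7.20% of its host (quartiles 3.56 and 13.7%), and 14 of 1232 stood above it.

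Each member was then set against its host within the same library. The difference of log2 CPM, member minus host, was compared between genotypes by limma over all 3209 pairs of a gene that does not code for protein and its host. It was higher in Atm-KO at an adjusted p under 0.05 in 306 of 1232 same-strand TEC pairs and 5 of 108 opposite-strand TEC pairs, and lower in 0 of either, against 13.8% higher and 0.0% lower over all pairs. All pairs include these TEC pairs, and of the 1851 pairs that were not TEC 7.02% were higher. The pairs include members that reached the filter's level in all Atm-KO but not all Atm-WT libraries, Gm37675, Gm38344 and Gm42898 among those called, so the counts are given as a description. At an unadjusted p under 0.05 the counts were 747 higher and 1 lower on the same strand and 17 and 0 on the opposite strand (37.4% and 0.405% of all pairs). The median difference was 0.81 for same-strand and 0.20 for opposite-strand pairs. The count of 306 fell to 0 when any of Atm-WT 2M, Atm-KO 1M, Atm-KO 11M or Atm-KO 12M was left out, to 11 without Atm-WT 32M, and was 530 without Atm-KO 7F. The 5 opposite-strand calls fell to 0 when any of these 5 libraries was left out, and were 10 without Atm-WT 13M and 11 without Atm-KO 7F. The same-strand median difference was 0.82 without Atm-WT 2M and 0.86 without Atm-KO 11M, and why the calls were lost was not tested. An edgeR interaction term on the counts called 4 same-strand pairs. The median stayed between 0.60 and 0.94 when each library was left out.

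**Figure D4:**
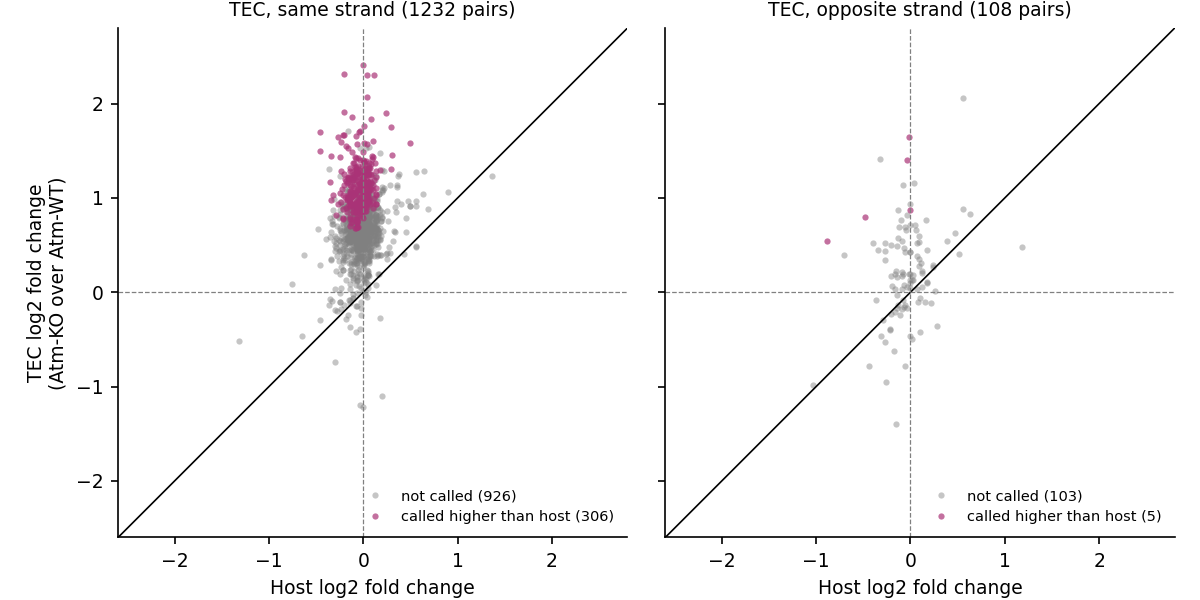
Log2 fold change of each tested TEC member (vertical axis) against that of its host (horizontal axis), for 1232 same-strand and 108 opposite-strand pairs. The diagonal marks equal change, and coloured points are pairs with an adjusted p under 0.05 (306 and 5). Same-strand members lay above the diagonal in 1208 pairs, and opposite-strand members in 73.

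Across same-strand pairs, the host's log2 fold change (median -0.03) went weakly with that of the member (median 0.76). Pearson's r was 0.17 over 1232 pairs, which share libraries and often a host, and it was 0.27 over the 108 opposite-strand pairs. The member was higher and the host lower in 720 same-strand pairs, and both were higher in 475. The size of the difference was also set against the build of the host. Over 4 groups of equal size, from the members in the shortest hosts (median 48885 bases) to those in the longest (762745 bases) the median log2 ratio was 0.80, 0.74, 0.79 and 0.74. From the group nearest the host's start to that nearest its end it was 0.73, 0.79, 0.78 and 0.75. By the host's level it was 0.72 in the lowest group and 0.76 in the highest. By GC content of the member it was 0.69 in the poorest group, then 0.73 and 0.82, and 0.84 in the richest. Members with an A-rich end (median 0.76) and without one (0.76) had the same median.

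Genes of other types that lie within protein-coding genes were set against their hosts in the same way, and the difference between strands was not tested. On the host's strand the median difference from the host was 0.77 for 307 lncRNA pairs, 0.81 for 102 snoRNA, 0.83 for 90 miRNA, 0.71 for 34 misc RNA, 0.64 for 57 snRNA and 0.60 for 301 processed pseudogene pairs. On the opposite strand it was 0.05 for 635 lncRNA, -0.06 for 35 miRNA and -0.01 for 102 processed pseudogene pairs, and the other 3 types had 1 to 3 opposite-strand pairs each. Of the same-strand pairs that were not TEC, 113 of 992 (11.4%) had an adjusted p under 0.05, all of them higher. On the opposite strand 13 of 811 pairs that were not TEC were higher at that level. The 11.4% lay above the 7.02% over all pairs that were not TEC. It lay below the 13.8% over all pairs, which include the TEC pairs.

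**Figure D5:**
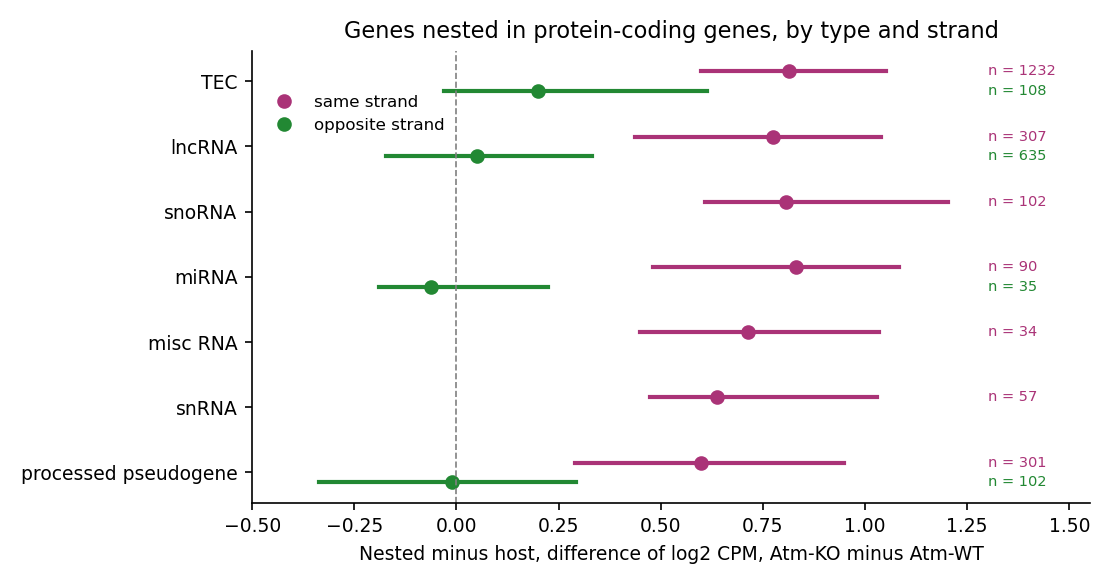
Difference of log2 CPM between a nested gene and its protein-coding host, Atm-KO minus Atm-WT (horizontal axis), by gene type (vertical axis) and strand. Points are medians over pairs and bars the quartiles, and groups under 20 pairs are left out. Same-strand medians ran from 0.60 to 0.83 over the 7 types, and opposite-strand medians from -0.06 to 0.20.

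A direct comparison within hosts was possible for 25 genes that held intron-only members on either strand. There, same-strand members had the higher median level in 20 of 25 hosts, at 0.792 CPM per kb over 87 members against 0.0508 over 28 members on the opposite strand. The median log2 ratio was 0.75 and 0.59, and it was higher on the same strand in 16 of 25 hosts.

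The 5 hosts with the most members were long neuronal genes. Kcnip4, which encodes a partner of A-type potassium channels, held 24 same-strand members over 1135 kb of chromosome 5. Their summed CPM was 97.0, 126, 183 and 70.6 in Atm-WT mice 2M, 7M, 13M and 32M, and 200.2, 174, 185 and 232 in Atm-KO mice 1M, 7F, 11M and 12M. The groups overlapped, since mouse 13M lay above mouse 7F. Kcnip4 itself had 91.9 CPM ± 10.5 in Atm-WT and 87.6 ± 4.09 in Atm-KO, so that the members together held more counts than Kcnip4 in every library but Atm-WT 32M. All 24 had a higher mean in Atm-KO (log2 ratio 0.36 to 1.01), and 13 of 24 pairs passed the pair test, in which 13.8% of all pairs were higher.

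Auts2, linked to autism and neuronal development, held 22 members. Their sum was 25.5, 57.8, 37.0 and 13.1 CPM in Atm-WT mice 2M, 7M, 13M and 32M, and 59.4, 57.2, 62.4 and 97.2 in Atm-KO mice 1M, 7F, 11M and 12M. Mouse 7M overlapped with mouse 7F. The median log2 ratio of 1.04 was the highest of the 5 hosts and 15 of 22 pairs passed, while Auts2 had a log2 fold change of 0.01 (SE 0.0983). Cntnap2, a neurexin-family adhesion protein, held 22 members with 26.7 CPM ± 9.09 in Atm-WT and 43.1 ± 5.38 in Atm-KO without overlap, and 2 of 21 pairs passed. Dlg2, a postsynaptic scaffold, held 20 (17.2 CPM ± 6.57 and 28.4 ± 3.70, with overlap, and 1 of 18 pairs passed), and Adgrb3, an adhesion receptor of climbing fibre synapses, held 19 (70.8 CPM ± 31.1 and 116.0 ± 19.4, with overlap, and 3 of 19 pairs passed). In these last 3 hosts the share of pairs that passed was near or below the 13.8% over all pairs, which include the TEC pairs. Of the same-strand members in these 5 hosts all but 1 in Cntnap2 and 1 in Dlg2 had the higher mean in Atm-KO. The hosts' own log2 fold changes lay between -0.07 and 0.13.

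Single members covered a wide range of levels. The highest per kb on the same strand was Gm42732 (chr5:73468707-73469903, plus strand) within Ociad1, with 43.5 to 52.8 CPM in Atm-WT against 52.0 to 53.5 in Atm-KO. Its log2 fold change of 0.11 (SE 0.0703, adjusted p = 0.381) lay below the lower quartile of its class (0.56), and at 42.5 CPM per kb it stood above its host (31.9). Gm47122 within Snrk, a kinase related to AMPK, followed at 18.8 CPM per kb. It had 4.46, 6.78, 5.33 and 2.16 CPM in Atm-WT mice 2M, 7M, 13M and 32M, and 9.66, 6.76, 6.33 and 11.2 in Atm-KO mice 1M, 7F, 11M and 12M. Mice 7M and 7F were nearly equal, so the genotypes overlapped (log2 fold change 0.86, SE 0.301, adjusted p = 0.156), and its difference from Snrk was 0.90 (adjusted p = 0.0471 by limma). 2900002M20Rik, in the first part of Adgrb3, had 1.24 to 3.25 CPM in Atm-WT against 3.07 to 5.21 in Atm-KO (log2 fold change 0.56, adjusted p = 0.300).

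The smallest p-values of higher same-strand members were those of Gm37562, 6030460B20Rik and Gm43389, each with an adjusted p of 0.0931 by edgeR. Gm37562 (chr9:101929429-101933756, minus strand) lies within Ephb1, which encodes an ephrin receptor. It had 0.422, 0.739, 0.559 and 0.397 CPM in Atm-WT mice 2M, 7M, 13M and 32M, and 2.53, 0.968, 2.14 and 3.24 in Atm-KO mice 1M, 7F, 11M and 12M. The groups did not overlap, with mouse 7F nearest to Atm-WT (log2 fold change 2.07, SE 0.360), and Ephb1 itself was at 0.04. 6030460B20Rik, within the cytochrome P450 gene Cyp20a1, had 0.0660 to 0.0940 CPM in Atm-WT against 0.207 to 0.649 in Atm-KO (log2 fold change 2.41, SE 0.457). With 5, 7, 8 and 6 counts in Atm-WT and 53, 25, 43 and 14 in Atm-KO, it passed the filter on low counts through the Atm-KO libraries, where it was high, so that its test is no support for a difference. Gm43389 (chr5:24358292-24360886, plus strand), within the ubiquitin ligase adaptor gene Klhl7, had 1.43 to 2.04 and 2.99 to 3.45 CPM (log2 fold change 0.90, SE 0.173). The adjusted p-values of Gm37562 ranged from 4.79e-06 by DESeq2 to 0.293 over the alternatives, and those of the other members named here reached as high.

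In the pair test Gm37675 (chr3:51780411-51783257, minus strand) had the smallest p among same-strand members. It lies within Maml3, a coactivator of Notch signalling. It had 0.0528, 0.282, 0.117 and 0.0933 CPM in Atm-WT mice 2M, 7M, 13M and 32M, and 0.612, 0.723, 0.567 and 0.799 in Atm-KO mice 1M, 7F, 11M and 12M. All Atm-KO values were more than the highest Atm-WT value, and the difference from Maml3 was 2.25 (SE 0.414, adjusted p = 0.0268 by limma). This member too passed the filter through Atm-KO, with 4, 21, 10 and 8 counts in Atm-WT and 50, 56, 44 and 54 in Atm-KO, and so did Gm38344 and, on the opposite strand, Gm42898 and Gm45290. Gm38344, within the phosphatase 2A subunit gene Ppp2r3a, had 0.0792 to 0.256 CPM in Atm-WT against 0.413 to 0.686 in Atm-KO. Its difference of 1.87 (SE 0.388, adjusted p = 0.0335) included a host at -0.27.

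At an unadjusted p under 0.05 the lower same-strand members were Gm37482 and Gm38211. Gm37482 within Lrriq3 had 0.369, 0.255, 0.291 and 0.117 CPM in Atm-WT and 0.0612, 0.0775, 0.129 and 0.178 in Atm-KO, in the order of mice given above, and the groups overlapped (log2 fold change -1.21, SE 0.496, adjusted p = 0.205). Gm38211 within the collagen gene Col5a2 had 0.140 to 0.373 CPM in Atm-WT against 0.0516 to 0.148 in Atm-KO (log2 fold change -1.10, adjusted p = 0.234), and reached the filter's level in all Atm-WT libraries but only 1 Atm-KO library. Gm45102 lies near the end of Ttc23, and 54.0% of it overlaps exons of Synm on the opposite strand. It had 0.107 to 0.350 and 0.0387 to 0.193 CPM (log2 fold change -1.19, adjusted p = 0.250). None of these passed the pair test.

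The opposite-strand members of the highest level per kb had log2 fold changes below 0. Gm49338, of which 45.7% overlaps exons of the beta-secretase gene Bace1, had 29.3 to 34.4 CPM in Atm-WT against 27.5 to 33.0 in Atm-KO (log2 fold change -0.09, SE 0.0813). 4930466K18Rik, in an intron of the helicase gene Mcm9, had 6.83 to 8.31 and 6.32 to 8.20 CPM (log2 fold change -0.11) and carries the hexamer printed above. Gm44101, within the Purkinje cell calcium channel gene Itpr1, had 13.2 to 15.8 and 8.99 to 13.9 CPM (log2 fold change -0.24), and 74.4% of it overlaps an exon of a lncRNA gene on its strand. Exons of Itpr1, at 319.5 CPM per kb against 5.93 for Gm44101, cover 181 of its bases on the opposite strand. All 3 overlapped between genotypes, with adjusted p-values of 0.581, 0.643 and 0.346.

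Gm44560 (chr7:58935800-58938914, minus strand) had the smallest p of the higher opposite-strand members. It lies within Ube3a, a ubiquitin ligase gene that neurons express from the maternal copy, and 65.0% of it overlaps exons of Ube3a. It had 4.28, 8.97, 7.49 and 4.58 CPM in Atm-WT mice 2M, 7M, 13M and 32M, and 11.6, 11.6, 11.8 and 11.4 in Atm-KO mice 1M, 7F, 11M and 12M. The Atm-KO mice were nearly equal and all above Atm-WT (log2 fold change 0.88, SE 0.212, adjusted p = 0.0958), and the difference from Ube3a was 0.94 (adjusted p = 0.0335). Snhg14, the long RNA that is transcribed against Ube3a, had a log2 fold change of 0.43 (SE 0.115, adjusted p = 0.107). Gm42898 within Lhfpl6 had 0.0269 to 0.256 CPM in Atm-WT against 0.335 to 0.439 in Atm-KO (log2 fold change 1.64, adjusted p = 0.138, with a log2 fold change of 2.33 without Atm-WT 13M), and Gm45290 within the RNA demethylase gene Fto 0.0699 to 0.233 and 0.232 to 0.622, with a slight overlap (1.40, adjusted p = 0.138). Gm42940, opposite Lrrc39, passed the pair test (difference 1.32, adjusted p = 0.0425) with 0.251 to 0.711 CPM in Atm-WT against 0.518 to 0.981 in Atm-KO. Its own log2 fold change was 0.80 (adjusted p = 0.249) and that of Lrrc39 was -0.48 (adjusted p = 0.499). Lower mean levels in Atm-KO were found for Gm48581 within Rnf144b, with 0.373 to 0.660 against 0.129 to 0.361 CPM (log2 fold change -0.96, adjusted p = 0.186), and for Gm10686 within Nlrx1, with 0.140 to 0.513 against 0.0516 to 0.222 (-1.40, adjusted p = 0.229). Gm10686 also passed the filter through Atm-WT, with all 4 libraries of that group and 1 Atm-KO library at its level, and its log2 fold change was -0.83 without Atm-WT 32M and -2.11 without Atm-KO 12M. A930005N03Rik opposite Dst had 1.83 to 2.46 and 1.05 to 2.03 CPM (-0.50, adjusted p = 0.258).

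Intergenic members split by their neighbours. The 121 that lay within a lncRNA gene on its strand had a median log2 ratio of 0.57, and the other 194 had 0.41. Those 126 that lay downstream of the nearest protein-coding gene on its strand had 0.46, the 45 downstream on the other strand 0.55, the 41 upstream on its strand 0.59, and the 103 upstream on the other strand 0.37. The 95 with an A-rich end had 0.62 and the 220 without 0.34. The highest level was that of Gm43398, downstream of Grid2ip, with 66.1 to 95.8 CPM in Atm-WT against 84.8 to 112 in Atm-KO (log2 fold change 0.18, adjusted p = 0.417). Exons of the lncRNA gene 9530056K15Rik on the opposite strand cover 39.5% of Gm43398. Gm37376 lies whole opposite an exon of Malat1, an abundant nuclear RNA, and within an exon of a lncRNA gene on its own strand. It had 5.20 to 8.41 and 6.87 to 11.9 CPM (log2 fold change 0.56, SE 0.208, adjusted p = 0.176). Malat1 was at 0.71 (SE 0.240). Gm44509, downstream of Nipa1, had 12.8 to 19.5 and 13.03 to 18.6 CPM (-0.10, adjusted p = 0.729).

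Of the intergenic members with a higher mean in Atm-KO, 8430422M14Rik (chr3:36009585-36010406, minus strand) lay 473 bases downstream of Mccc1 on its strand. It had 1.35, 1.49, 1.32 and 0.828 CPM in Atm-WT mice 2M, 7M, 13M and 32M, and 3.53, 2.08, 2.27 and 3.76 in Atm-KO mice 1M, 7F, 11M and 12M, without overlap (log2 fold change 1.22, SE 0.261, adjusted p = 0.0931). Gm38187, in the lncRNA gene Gm29514, had 0.863 to 1.11 CPM in Atm-WT against 1.82 to 1.89 in Atm-KO (0.83, SE 0.188, adjusted p = 0.0938). Gm44178, downstream of Tpra1, had 0.296 to 0.369 and 0.503 to 0.947 (1.26, SE 0.291, adjusted p = 0.0942). Gm30571, which lies whole within an exon of the lncRNA gene Gm64684, and Gm19439 had lower means, with 0.712 to 1.75 against 0.516 to 0.857 CPM (-0.99, adjusted p = 0.131) and 6.53 to 14.0 against 3.39 to 7.87 (-0.68, adjusted p = 0.207), and both overlapped between genotypes.

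At the threshold of 40 counts, the members just inside were Gm37539, Gm38345 and Gm43094, at 0.274, 0.0366 and 0.0705 CPM per kb. The genes just outside, with 39 counts, were Gm37092, Gm38075 and Gm38384, at 0.0399, 0.0680 and 0.0545 CPM per kb. None of these 6 had enough counts to be tested.

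Factors that end, process or degrade unstable nuclear transcripts were read beside the members. Of 54 such genes 53 were tested, and 0 passed an adjusted p of 0.05. At an unadjusted p under 0.05, 11 were higher and 2 lower, where 11.7% of all genes tested were higher and 8.48% lower. The nuclear exosome, which degrades RNA from its 3' end, had 4 of 12 tested genes higher at that level, among them Exosc7 (log2 fold change 0.33, adjusted p = 0.132), Exosc8 (0.40, adjusted p = 0.116) and its catalytic subunit Dis3 (0.21, adjusted p = 0.165). Its targeting complexes NEXT and PAXT had 2 of 8, Zfc3h1 (0.34, adjusted p = 0.107) and the poly(A)-binding protein gene Pabpn1 (0.63, adjusted p = 0.111), and their shared helicase gene Mtrex was at -0.08. Integrator, which ends short transcripts, had 3 higher and 1 lower of 14, with Ints13 at 0.38 (adjusted p = 0.0931). Cleavage and polyadenylation factors had 2 higher and 1 lower of 19, near the share of all genes, with Cpsf1 at 0.32 (adjusted p = 0.0931). The medians of the 4 lists lay between 0.04 and 0.15.

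The 12 listed RNAs that stay in the nucleus, Malat1 and Neat1 among them, held 0.552 to 1.01% of the counts in Atm-WT against 1.08 to 1.73% in Atm-KO, with mouse 32M lowest in Atm-WT and mouse 7F lowest in Atm-KO, as for same-strand members. Neat1 passed at an adjusted p of 0.0371 (log2 fold change 0.70), and 9 of 12 had an unadjusted p under 0.05. Earlier results of these data had shown this list. For the mitochondrial genome the shares were 0.903 to 1.20% (Atm-WT) and 0.565 to 0.952% (Atm-KO). Of the cell type markers 0 passed an adjusted p of 0.05, which 0.0178% of all genes did. At an unadjusted p under 0.05, 3 of 5 microglia markers were lower in Atm-KO, as were 2 of 5 each of oligodendrocytes, of Bergmann glia and astrocytes and of endothelial cells, and 1 of 5 each of choroid plexus, meningeal fibroblasts and Purkinje cells, while 1 of 5 granule cell markers was higher (8.48% of all genes were lower and 11.7% higher). The 5 microglia markers summed to 72.6 to 101.2 CPM in Atm-WT against 59.3 to 77.1 in Atm-KO, the 5 choroid plexus markers to 734 to 1489 and 399 to 1167, and the 5 oligodendrocyte markers to 2878 to 3853 and 1711 to 3032. The 5 granule cell markers summed to 2857 to 3574 and 2900 to 3703 CPM, and the 5 Purkinje cell markers to 7730 to 9612 and 7617 to 9180. For Bergmann glia and astrocytes the sums were 2051 to 2241 and 1845 to 2064, for endothelial cells 209 to 230.1 and 169 to 218, and for meningeal fibroblasts 83.3 to 110.2 and 73.2 to 98.3. None of these markers was at 0. The part of nuclear RNA content, cell composition and RNA quality in the higher counts on members was not tested.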

How the data were processed

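Counts per gene from 8 cerebellar libraries were used as deposited. The authors had RNA extracted with TRIzol and sequenced at Novogene, checked the reads with FastQC 0.11.9, aligned them with STAR to GRCm39 with a GENCODE annotation, counted them with featureCounts, and tested them with DESeq2. Strand and read-pair settings and the selection of RNA for the libraries are not given in the sources used here.

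Gene types and positions came from a GENCODE annotation of GRCm39 later than the authors', in which 98.8% of identifiers, holding at least 99.89% of the counts of each library, were matched. Genotypes were compared with edgeR 4.0.16 (quasi-likelihood test, filterByExpr, TMM, no covariate, R 4.3.3), adjusted by Benjamini-Hochberg over 22423 genes, with 4 libraries a group and two-sided p-values. Fold changes are Atm-KO over Atm-WT on the log2 scale. CPM are counts scaled to a fixed library total, with the total taken over the tested genes and multiplied by the library's TMM factor. The difference of log2 CPM between a nested gene and its host (prior count 2) was tested with limma 3.58.1 over all pairs. DESeq2 1.42.0, other scalings, filters, member definitions and each library left out were alternatives, and the scripts were tested on simulated data. Genome windows were read with pysam 0.24.0. An exact permutation test of a single value cannot go below p = 0.0286 here.

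In each of the same-strand, opposite-strand and intergenic classes, named members were the 3 with the highest level per kb and those with the smallest p in either direction (3 higher, 2 lower), plus the 3 smallest p of the pair test in either direction, the 5 hosts with the most members, and the 3 genes on either side of 40 counts. The members and the gene lists were chosen with earlier results of these data known. A marker list and the end windows of some named members are not reported here.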

Additional observations from a re-analysis of the deposited data

Results flagged for a closer look

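In 3 of 74 groups of 4 libraries, for the members and genes named above, a single library stood apart from the other 3 by Dixon's test. Chance gives this in about 1 in 20 groups, or 3.7 of 74. Gm10686, opposite Nlrx1, had 0.222 CPM in Atm-KO mouse 12M, while the other Atm-KO mice had 0.0516 to 0.0735. Gm42940, opposite Lrrc39, had 0.518 CPM in the same mouse and 0.980 to 0.981 in the others. Gm37539, at the threshold of 40 counts, had 0.145 CPM in Atm-WT mouse 2M and 0.0537 to 0.0583 in the other Atm-WT mice. All 3 members lie opposite exons of their host.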

How the results depend on the processing

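Over the alternatives the median log2 fold change kept its sign in the same-strand, opposite-strand and intergenic classes, whereas counts of calls moved, and the cause was not tested. The 0 members at an adjusted p under 0.05 became 354 with DESeq2 and 126 with no filter on low counts. The 12 of 112 opposite-strand members higher at an unadjusted p under 0.05 became 23 of 148 with DESeq2, 21 of 148 with no filter and 21 of 203 with any overlap counted as membership. In the main fit 11.7% of all genes tested were higher at that level, and this share is not given for these alternatives. With members clear of other exons, the 63 of 261 intergenic members became 40 of 170, and the opposite-strand median log2 fold change went from 0.22 to 0.45. In the pair test, the 306 same-strand and 5 opposite-strand calls became 201 and 2 with a prior count of 0.5 and 4 and 0 with an edgeR interaction term. With members clear of other exons, the opposite-strand pairs had 2 calls and a median difference of 0.58 in place of 0.20. Without both Atm-WT mouse 32M and Atm-KO mouse 12M, chosen after seeing the data, 1 member passed the adjusted p. In that fit 358 of 1252 same-strand, 7 of 114 opposite-strand and 29 of 264 intergenic members were higher at the unadjusted p. The pair test called 0 and 0, and the log2 fold changes of Gm43398 and Gm44509 changed sign to -0.0091 and 0.055. When each library was left out in turn, the members at the adjusted p numbered 0 to 3 and those at the unadjusted p 462 to 771 on the same strand, 6 to 23 on the opposite strand and 39 to 80 between genes. Pair calls ranged from 0 to 530 and from 0 to 11. The median log2 fold changes ranged from 0.57 to 0.90, 0.19 to 0.37 and 0.35 to 0.56 in the 3 classes, and the median pair differences from 0.60 to 0.94 and 0.19 to 0.25. With DESeq2, 10 of the named members passed the threshold that they had missed. No paired analysis was possible because the groups share only the mouse number 7 in their labels, and that number names different mice. With 4 libraries a group and no stated batch, genotype cannot be told apart from any handling that differed with it.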

Other observations

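The members were spread unevenly over the chromosomes. Chromosome 5 held 337 and chromosome 1 held 298, or 34.5 and 30.9 for every 100 protein-coding genes, while chromosome 11 held 10 (0.781 for every 100) and chromosome X held 3 (0.541).

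Within 10 Mb of Atm on chromosome 9, where a targeted line can keep sequence of the strain of origin, 19 members lay, 9 of them on their host's strand. All 9 had a higher mean in Atm-KO, as 96.0% of all same-strand members did, with log2 ratios of 0.77 to 1.25 and a median of 0.88 (0.76 over all same-strand members). Of the other 10 members 6 had a higher mean, with log2 ratios of -1.38 to 1.81 and a median of 0.21.

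Of the 15 same-strand members whose level per kb lay above that of their host, the median log2 ratio was 0.49, while it was 0.76 over the 332 same-strand members with the highest level relative to the host, which include them.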
